A study of Mus musculus with 31 samples.

Results

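The Pax genes are described here through the chromatin marks at 7 of them in mouse primordial germ cells, from which eggs and sperm later form. The windows, in mm9, were chr2:147170000-147220000 for Pax1, chr12:57775000-57830000 for Pax9, chr19:44810000-44930000 for Pax2, chr2:24260000-24345000 for Pax8, chr1:78090000-78225000 for Pax3, chr4:139280000-139400000 for Pax7 and chr2:105490000-105545000 for Pax6. Every peak that overlapped a window was taken, which gave 400 of the 265274 peaks in the 18 lists of the series. All 400 were peaks of H3K27me3, out of 62662 in its 9 lists, and 0 of the 202612 H3K9me3 peaks overlapped a window. The windows were given as coordinates, and the mm9 positions of exons, promoters and other gene parts inside them were not analysed here.

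The cells were wild type on a C57BL/6 x GOF18delta_PE-EGFP background and were sorted by flow cytometry. GOF18delta_PE-EGFP is a transgene in which a fragment of the Oct4 locus without its proximal enhancer drives EGFP in germ cells. Groups were E10.5 cells (E for embryonic day), pooled from several embryos and given no sex by the labels, E13.5 female cells and E13.5 male cells, with 3 libraries of each mark per group. Both marks were mapped by native ChIP-seq on 1000 cells per reaction, and peaks were called in each library separately. The lists carry no expression values, so the identity of the sorted cells could not be checked by marker genes, and a change in the mark cannot be told apart from a change in the share of cells that carry it.

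Pax genes encode transcription factors that bind DNA through a paired domain and direct the formation of organs and tissues. Pairs of close relatives act in related places: Pax1 and Pax9 in the skeleton and pharyngeal pouches, Pax2 and Pax8 in kidney and other epithelia, Pax3 and Pax7 in neural crest and muscle progenitors, while Pax6 directs the eye, parts of the brain and the pancreas. In cells that do not use them such developmental genes are classic targets of Polycomb repressive complex 2, which writes H3K27me3 and is drawn to CpG-rich DNA. H3K9me3 belongs to another silencing system, found mostly at repeats and heterochromatin.

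CpG content was read from the 250 bases before annotated start sites in RefSeq (GRCm38.p6), where 6 of the 7 genes had an entry and gave 9 promoters. The median over 32851 promoters was 6 CpG. Pax1 had 10 CpG, Pax9 7, Pax8 6 and Pax7 13, both Pax6 promoters had 15, and the 3 Pax2 promoters had 5, 20 and 25. At least 20 CpG were found in 17.95% of all promoters, at least 15 in 27.3% and at least 6 in 50.4%. A promoter each of Pax2, Pax8 and Pax6 is printed because these windows were among the most covered (Pax2, Pax6) and the least covered (Pax8) by H3K27me3. CG dinucleotides, which read the same on both strands, are in capitals. Their positions belong to another build than the peaks, so no peak was placed on them.

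Pax2, chr19:44755502-44755751, plus strand, GRCm38.p6: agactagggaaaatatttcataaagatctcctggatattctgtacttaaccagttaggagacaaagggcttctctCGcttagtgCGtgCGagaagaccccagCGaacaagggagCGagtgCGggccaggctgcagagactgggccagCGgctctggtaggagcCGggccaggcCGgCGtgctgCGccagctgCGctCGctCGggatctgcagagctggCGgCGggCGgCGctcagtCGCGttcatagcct
Pax8, chr2:24475600-24475849, minus strand, GRCm38.p6: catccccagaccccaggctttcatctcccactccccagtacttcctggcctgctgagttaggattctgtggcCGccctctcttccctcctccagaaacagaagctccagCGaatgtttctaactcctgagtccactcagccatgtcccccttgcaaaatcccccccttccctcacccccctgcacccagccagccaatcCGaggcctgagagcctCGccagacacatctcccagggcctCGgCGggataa
Pax6, chr2:105668646-105668895, plus strand, GRCm38.p6: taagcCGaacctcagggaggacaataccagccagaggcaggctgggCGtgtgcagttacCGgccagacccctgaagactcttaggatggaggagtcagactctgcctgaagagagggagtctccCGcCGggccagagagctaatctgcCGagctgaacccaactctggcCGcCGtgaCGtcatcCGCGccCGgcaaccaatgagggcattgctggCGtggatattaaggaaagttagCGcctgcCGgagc

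The printed Pax2 sequence has 20 CpG, the Pax6 sequence 15 and the Pax8 sequence 6. The other Pax2 promoters had 5 and 25 CpG, so this order depends on which promoter was printed.

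The lists differ strongly in length, and this bears on every value below. H3K27me3 lists held 359 to 23141 peaks and 0.159 to 35.5 Mb, and the group means were, in order, E10.5 (19.2 ± 16.7 Mb), E13.5 female (3.64 ± 1.88 Mb) and E13.5 male (2.21 ± 1.93 Mb; SD, n = 3). Replicate 2 of E10.5, at 2.08 Mb, lay among the E13.5 lists. E13.5 male replicate 2, with 359 peaks, stood apart, since H3K9me3 peaks of its own group and number covered 45.6% of it, where this share was 0.0426 to 5.52% in the rest. H3K27me3 of E10.5 replicate 3 was called against an input named for H3K9me3. Read depth is unknown, and no label ties a replicate to its own animal or litter, so the p-values reflect library-to-library spread alone, and that may be technical.

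H3K27me3 was present in all 7 Pax windows at both stages, and its peaks were broad domains in E10.5 replicates 1 and 3 and shorter islands in E10.5 replicate 2 and the E13.5 lists. The windows make up 0.0235% of the genome and held 0.891 to 2.18% of the H3K27me3 length at E10.5, 1.24 to 1.63% in female and 0.696 to 1.15% in male cells. Together they held 203.5 ± 141 kb of peaks at E10.5, 47.2 ± 19.98 kb in female and 24.5 ± 21.6 kb in male cells (SD, n = 3 each). All lists had a peak in every window except E13.5 male replicate 2, which had 3 peaks in all, 2 at Pax3 and 1 at Pax2. The E10.5 mean was 5.68 times the mean of the 6 E13.5 libraries in the windows, and 6.56 times over the whole lists.

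**Figure D1:**
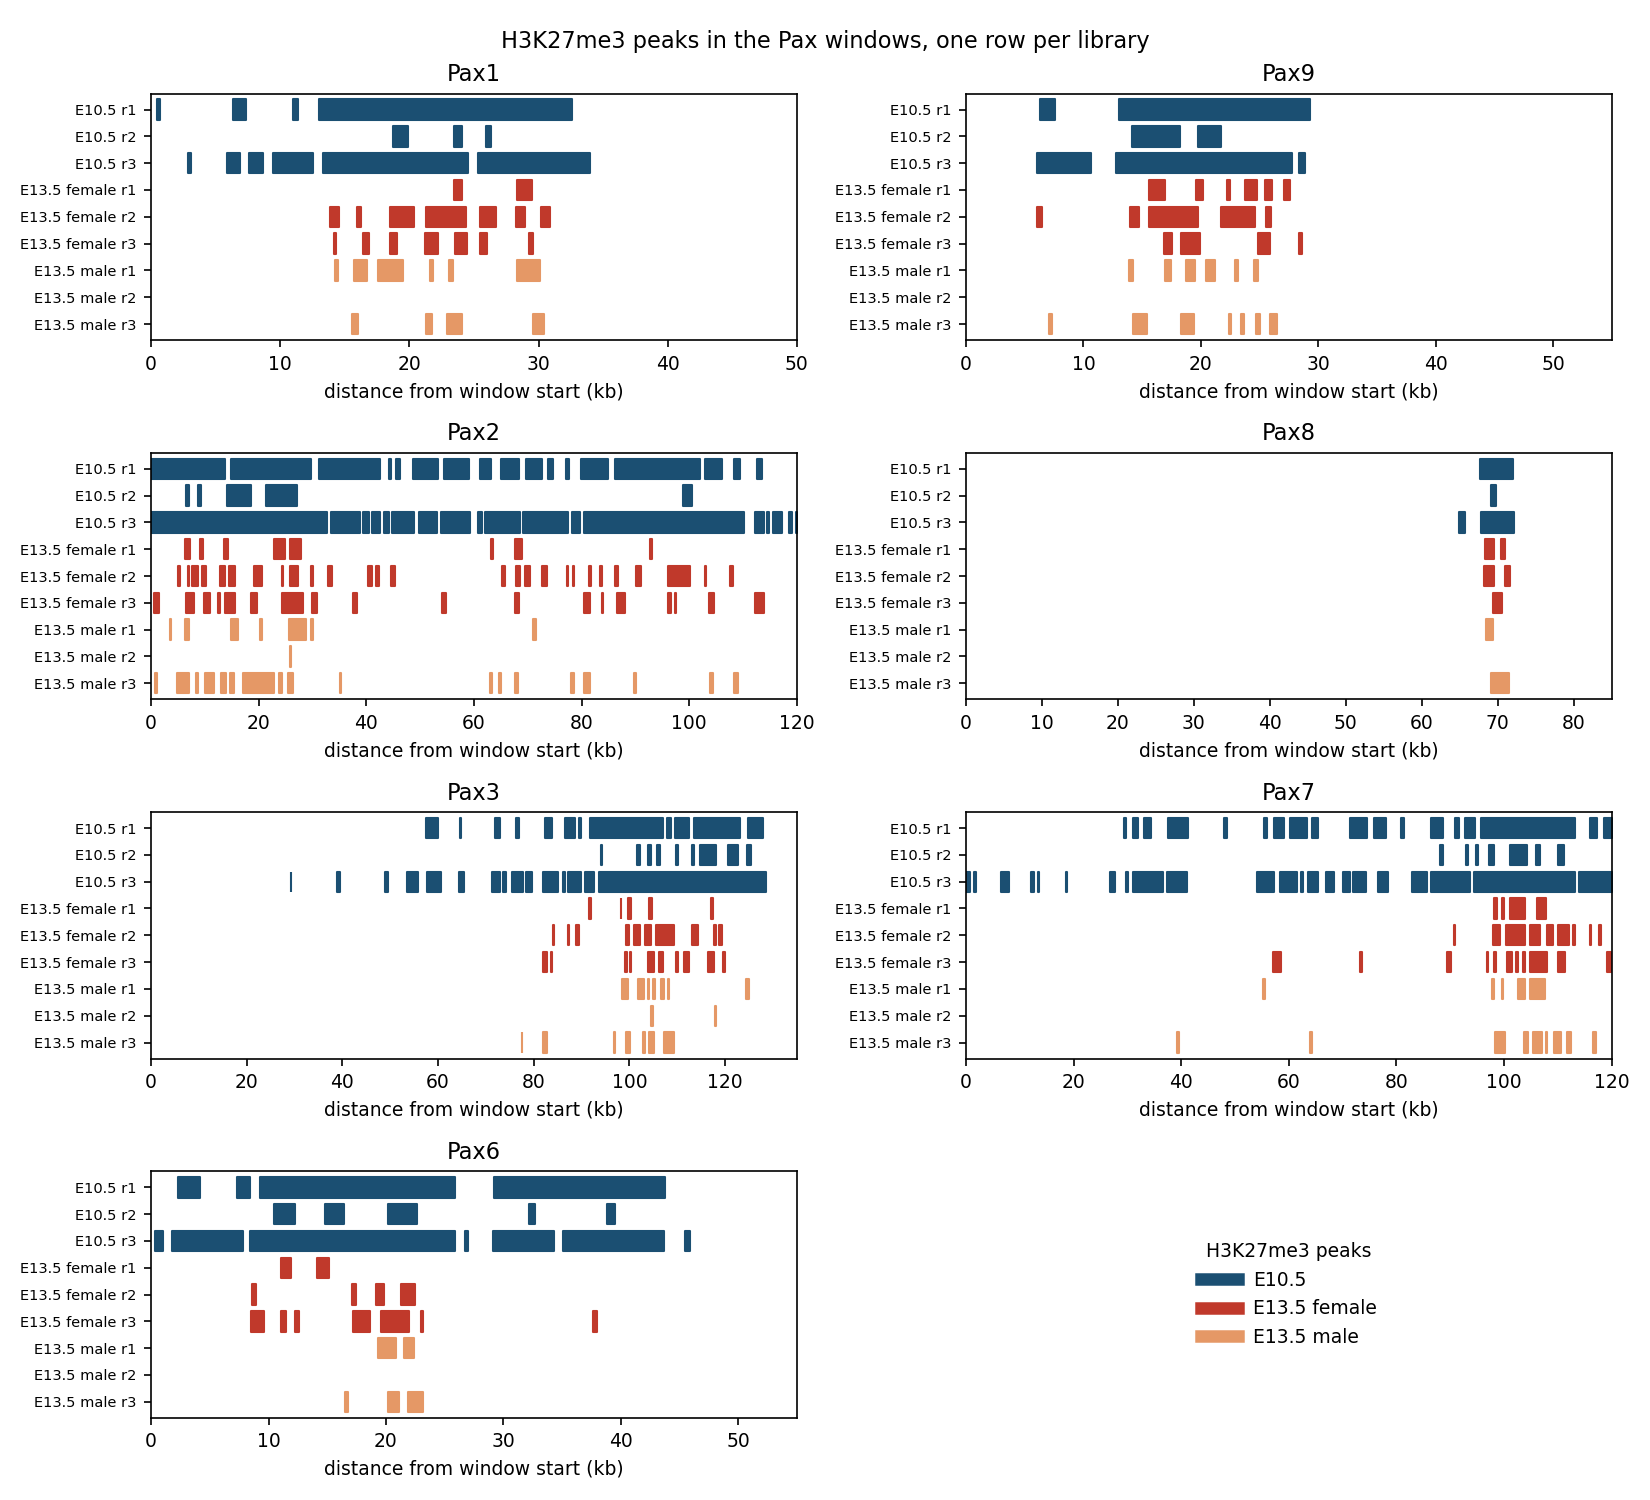
H3K27me3 peaks in each Pax window, drawn to scale with distance from the window start in kb on the x axis and 1 line of bars per library; blue is E10.5, red E13.5 female and orange E13.5 male. Long blue bars reach 41135 bp at Pax2, whereas the longest E13.5 peak in any window spans 5806 bp.

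Within windows, coverage was compared per length, as the percent of the window in peaks. Pax2 led in E10.5 replicates 1 and 3, with 72.2 and 87.9% of its window, and Pax6 led in E10.5 replicate 2, with 12.9%. Pax8 was last in all 3 E10.5 lists, with 5.23, 0.801 and 6.03%, and in 2 female lists and the male lists of replicates 1 and 3. Pax2, Pax6, Pax1, Pax7, Pax9, Pax3 and Pax8 had E10.5 means of 57.0 ± 40.6, 48.4 ± 31.0, 32.5 ± 24.8, 32.4 ± 24.4, 26.4 ± 13.7, 26.3 ± 17.96 and 4.02 ± 2.82% (SD, n = 3 each), in that order. No neighbours in this order differed by more than their SD except Pax3 and Pax8. In E13.5 female cells Pax2 had the highest mean, 13.8 ± 6.20%, and Pax8 the lowest, 1.85 ± 0.431%, and in male cells these were again Pax2, 7.06 ± 7.65%, and Pax8, 1.25 ± 1.39% (SD, n = 3 each). By CpG count of the richest promoter the 6 genes with an entry ran Pax2, Pax6, Pax7, Pax1, Pax9 and Pax8, and by E10.5 coverage Pax2, Pax6, Pax1, Pax7, Pax9 and Pax8. Pax9 and Pax8 had 7 and 6 CpG but E10.5 means of 26.4 and 4.02%. By CpG relative to that expected from C and G counts, taking each gene's highest promoter, Pax6 (1.06) came before Pax2 (0.88). On that measure Pax9 (0.62) came before Pax7 (0.52). That comparison was made after both orders were seen, over 6 genes, with no test, and Pax2 had several promoters to pick the richest from. In E10.5 replicate 2 alone Pax6 came before Pax2 and Pax9 before Pax7 and Pax1, unlike in replicates 1 and 3. The orders also differed at E13.5, where Pax6 came after Pax9, Pax1 and Pax7 in female and male means. For scale, 3433 bins of 100 kb with peaks in at least 3 lists had medians of 2.51, 0 and 4.97% in E10.5 replicates 1, 2 and 3, against medians over the 7 windows of 37.1, 6.76 and 50.8%.

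Pax1 and Pax9, which act in the vertebral column and the pharyngeal pouches, carried long domains in E10.5 replicates 1 and 3 and scattered small peaks at E13.5. Pax1 had 21.2, 2.14 and 25.4 kb in E10.5 replicates 1, 2 and 3, 1.81, 8.66 and 3.96 kb in female and 5.61, 0 and 2.85 kb in male libraries. E10.5 replicates 1 and 3 lay above every E13.5 library, whereas replicate 2 lay below 4 of the 6, so the groups overlap. Means were 16.2 ± 12.4 kb at E10.5, 4.81 ± 3.50 kb in female and 2.82 ± 2.80 kb in male cells (SD, n = 3 each).

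Pax9 had 17.5, 5.98 and 20.1 kb at E10.5, 4.46, 8.69 and 3.47 kb in female and 3.08, 0 and 3.88 kb in male libraries. Only female replicate 2 exceeded the lowest E10.5 library. Means were 14.5 ± 7.53, 5.54 ± 2.77 and 2.32 ± 2.05 kb in E10.5, female and male cells (SD, n = 3 each). Among E10.5 peaks the widest were 19526 bp at Pax1, chr2:147183031-147202556, and 16244 bp at Pax9, chr12:57788075-57804318, both in replicate 1. At E13.5 the widest were 3140 bp at Pax1 and 4093 bp at Pax9, both in female replicate 2.

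Pax2 and Pax8, used in kidney formation among other organs, stood at the 2 ends of the family in coverage per length. Pax2 had 86.7, 13.2 and 105 kb at E10.5, 8.09, 21.8 and 19.9 kb in female and 6.82, 0.231 and 18.4 kb in male libraries, within a window of 120 kb. E10.5 replicate 2 lay below 3 E13.5 libraries, female replicates 2 and 3 and male replicate 3, so the groups overlap. Means were 68.4 ± 48.8 kb at E10.5, 16.6 ± 7.44 kb in female and 8.47 ± 9.18 kb in male cells (SD, n = 3 each). The widest peak, 41135 bp in E10.5 replicate 3, spanned chr19:44801642-44842776 and began before the window.

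Pax2 was also the only window with a stretch covered in all 9 H3K27me3 lists, the 175 bases of chr19:44835885-44836059. Only Pax2 and Pax3 could have had one, since E13.5 male replicate 2 had peaks in no other window. Around the 175 bases, chr19:44835859-44836412 and, nearer to the window start, chr19:44816785-44817007 were covered in at least 8 lists. The length covered in at least 8 lists was 777 bases at Pax2 and 709 bases at Pax7. Pax8 had 4.45, 0.681 and 5.13 kb at E10.5, 1.63, 1.92 and 1.19 kb in female and 0.860, 0 and 2.33 kb in male libraries. Its 11 peaks over all lists lay in 1 place near the window's end, and 88.7% of the length with a peak in any female list also had one in a male list. E10.5 replicate 2 lay below 5 of the 6 E13.5 libraries at Pax8, and means were 3.42 ± 2.39, 1.58 ± 0.367 and 1.06 ± 1.18 kb in E10.5, female and male cells (SD, n = 3 each).

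Pax3 and Pax7, which mark neural crest and muscle progenitors, carried long domains towards the end of their windows. Pax3 had 40.3, 9.13 and 56.9 kb at E10.5, 2.06, 10.4 and 6.92 kb in female and 4.60, 0.876 and 5.67 kb in male libraries. Only female replicate 2 lay above the lowest E10.5 library. Means were 35.4 ± 24.2, 6.46 ± 4.18 and 3.72 ± 2.52 kb in E10.5, female and male cells (SD, n = 3 each). A peak of 34981 bp, chr1:78183598-78218578, was the widest at E10.5, and no E13.5 peak at Pax3 passed 3905 bp.

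Pax7 had 44.6, 7.13 and 64.8 kb at E10.5, 5.41, 10.55 and 9.86 kb in female and 5.24, 0 and 8.27 kb in male libraries. Female replicates 2 and 3 and male replicate 3 lay above E10.5 replicate 2, so the groups overlap. Means were 38.8 ± 29.3, 8.61 ± 2.79 and 4.50 ± 4.18 kb (SD, n = 3 each). In both windows 8 lists shared a stretch: at Pax3 146 bases, chr1:78194415-78194560, and at Pax7 543 bases, chr4:139386043-139386585, with a second of 166 bases at chr4:139383681-139383846. At Pax8 29 bases were shared by 8 lists. The list without a peak at the Pax7 stretches was E13.5 male replicate 2, which had no peak in that window.

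Pax6, the eye and forebrain regulator, was the only window in which every E10.5 library lay above every E13.5 library. It had 34.0, 7.11 and 38.6 kb at E10.5, 1.90, 2.55 and 6.23 kb in female and 2.32, 0 and 2.38 kb in male libraries. The lowest E10.5 library, replicate 2, and the highest E13.5 library, female replicate 3, were 7.11 and 6.23 kb, so the groups were separate by a narrow margin. Means were 26.6 ± 17.0 kb at E10.5, 3.56 ± 2.33 kb in female and 1.57 ± 1.36 kb in male cells (SD, n = 3 each). E10.5 replicate 3 held the widest peak, 17401 bp at chr2:105498450-105515850, and the widest at E13.5 was 2394 bp, in female replicate 3. No stretch of Pax6 was covered in more than 7 lists.

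**Figure D2:**
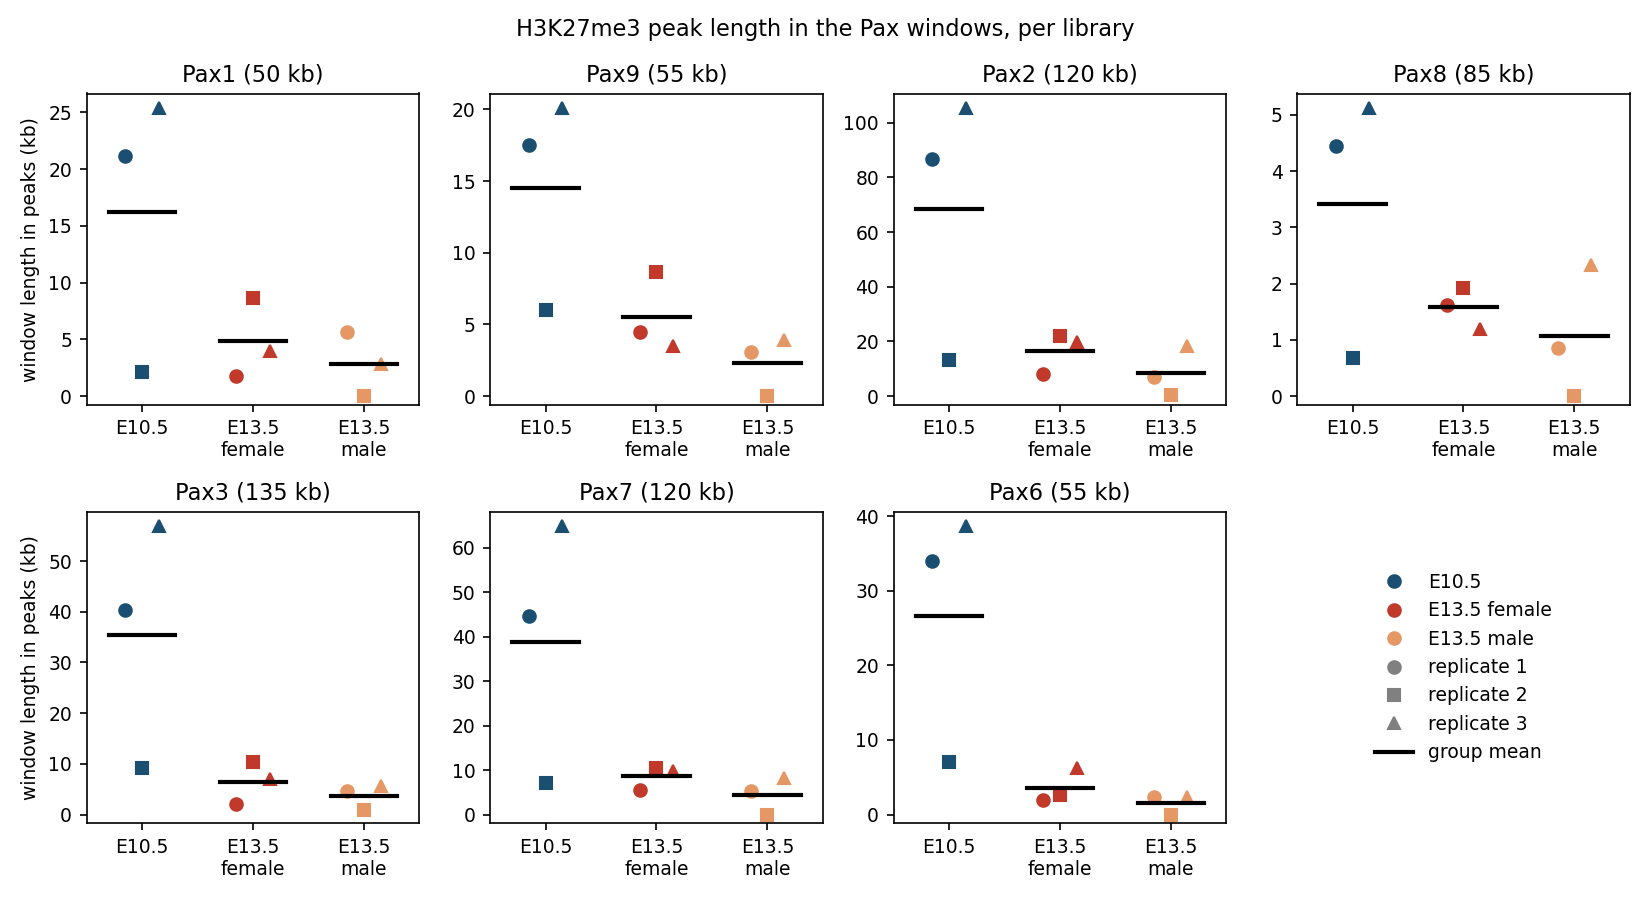
Length of each Pax window in H3K27me3 peaks, in kb on a linear y axis that differs between panels; each point is 1 library, its shape gives the replicate number, and lines are group means. Replicates 1 and 3 of E10.5 lie far above the rest in each panel, and replicate 2 of E10.5 lies above all E13.5 points in the Pax6 panel alone.

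The change with stage was tested for each window with an exact two-sided permutation test of mean kb, 6 E13.5 against 3 E10.5 libraries, which cannot go below p = 0.0119. Mean coverage was lower at E13.5 in 7 of 7 windows, where only 8.39% of the 100-kb bins had a higher mean at E13.5. Of the windows, 5 passed an unadjusted p of 0.05. Over the 3440 features tested in the same way, the 7 windows and the 3433 bins of 100 kb, 18.6% were lower at E13.5 past that threshold and 8.52% had every E13.5 below every E10.5 library, as 1 of the 7 windows did, while 0.262% were higher at E13.5 past the threshold, as 0 windows were. Of the bins, 26.9% had a peak in E10.5 replicate 2, as all 7 windows did. A feature without one cannot have every E13.5 below every E10.5 library. The shares of windows and bins thus start from unlike backgrounds and were not compared by a test. E10.5 over E13.5 ratios of mean kb were 10.4 at Pax6 (exact permutation p = 0.0119), 6.97 at Pax3 (p = 0.0238), 5.92 at Pax7 (p = 0.0476), 5.46 at Pax2 (p = 0.0476), 4.26 at Pax1 (p = 0.0595), 3.70 at Pax9 (p = 0.0238) and 2.59 at Pax8 (p = 0.0833). The median ratio was 5.46 over the windows and 7.33 over the 3289 bins with a mean above 0 at both stages. These p-values are unadjusted, and 14 such tests were run with those of the sexes below.

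Apart from Pax6, no call held with every library left out in turn. Leaving out a library also makes the exact test coarser. With 2 E10.5 libraries only the smallest possible p, 0.0357, passes, so a lost call does not by itself show dependence on that list. Pax6 passed with any 1 of the 9 libraries left out (exact permutation p from 0.0179 to 0.0357). Pax2 and Pax7 passed only without E10.5 replicate 2 (exact permutation p = 0.0357 each). With any of the other 8 libraries left out, whether of E10.5 or of E13.5, they did not pass (exact permutation p from 0.0536 to 0.143). Pax3 and Pax9 did not pass without E10.5 replicate 1 or without replicate 3 (exact permutation p = 0.0714 each), and passed without each of the other 7 libraries (0.0179 to 0.0357). Without E10.5 replicate 2 all 7 windows passed (exact permutation p = 0.0357 each, the smallest that 2 against 6 allows).

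List length moved with stage, so the same values were also taken as ppm of each list's own peak length, bases in the window per Mb of peaks. On that scale 6 of the 7 windows did not pass the test. At Pax6 the E10.5 lists held 1713, 3411 and 1088 ppm, the female lists 1216, 489 and 1508 ppm and the male lists 938, 0 and 597 ppm. E10.5 replicates 1 and 2 lay above all E13.5 libraries and replicate 3 below female replicates 1 and 3, so the groups overlap. Pax6 differed by -1279 ppm between E13.5 and E10.5 (exact permutation p = 0.0476) and was the only window of 7 to pass, where 6.98% of the 3440 features were lower and 0.349% higher past the threshold. In 0 windows did every E13.5 library lie below every E10.5 library in ppm, as in 4.62% of the features. The bins are the same sparse ones as in kb, so these shares also start from unlike backgrounds. Pax1 and Pax8 were higher at E13.5 in ppm, by 189 and 207, and the other 4 windows differed by -720 to -175 ppm, with exact permutation p-values from 0.417 to 0.833 for these 6.

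**Figure D3:**
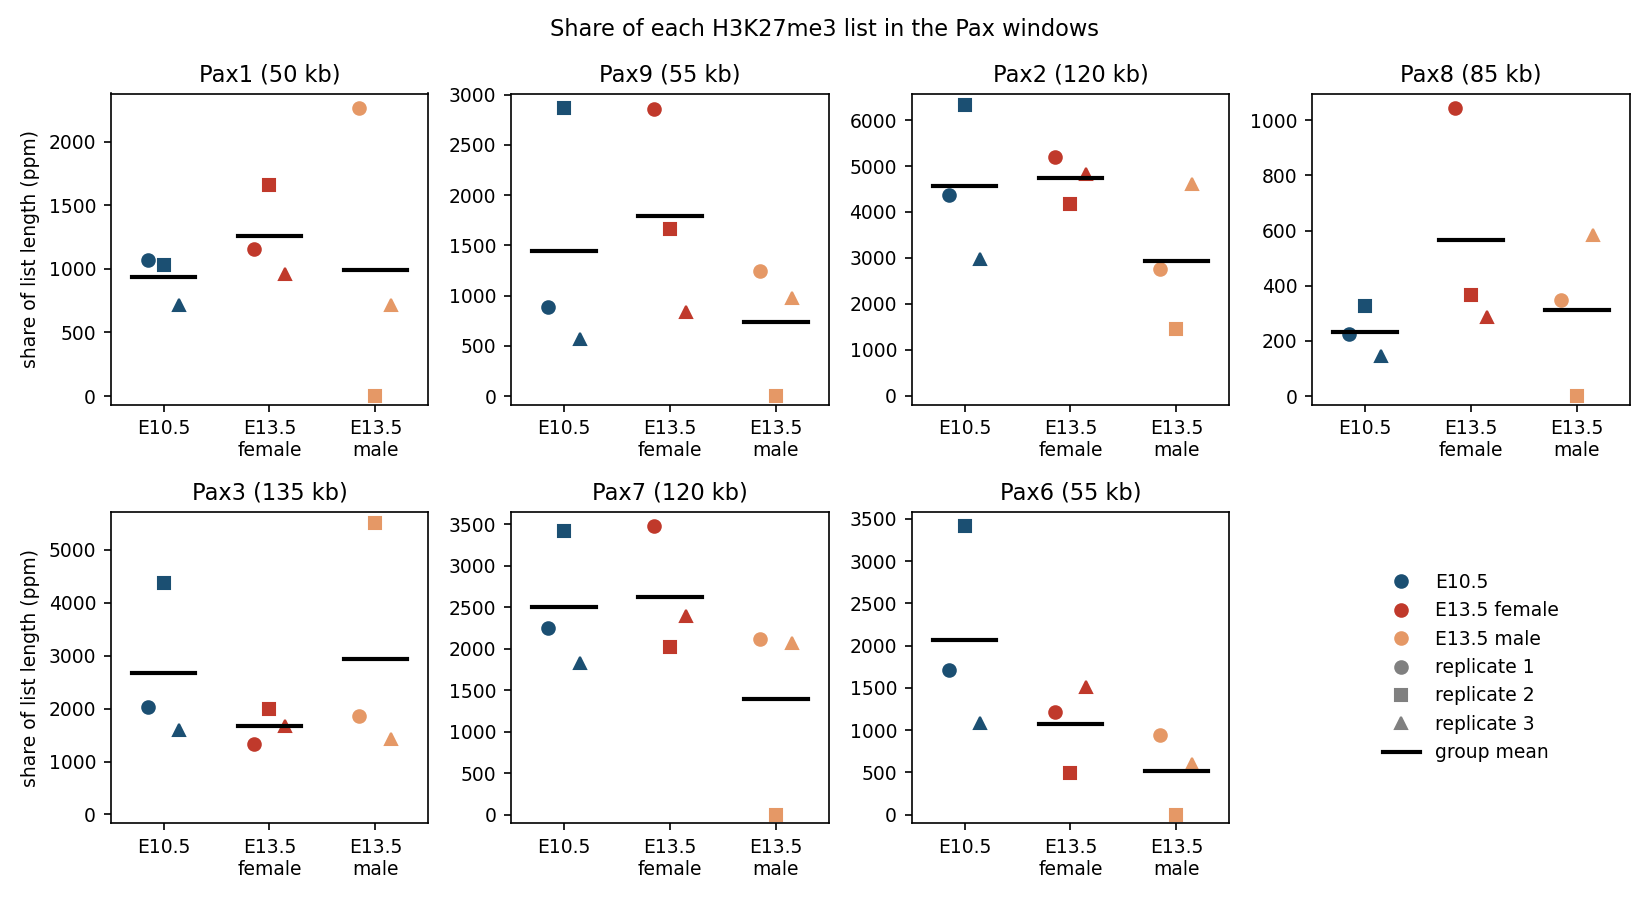
Share of each H3K27me3 list's peak length that lies in a Pax window, in ppm on linear y axes that differ between panels; each point is 1 library, with the replicate number as its shape and group means as lines. E10.5 and E13.5 points are mixed in every panel, and at Pax3 the male replicate 2 point, from a list of 359 peaks, is the highest at 5508 ppm.

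A limma fit on log2(ppm + 100) over all 3440 features, with Benjamini-Hochberg adjustment over all of them, called 0 of the 7 windows in each contrast. The 100 ppm added before the log understates changes of windows with little peak length. Of the features, 0.0581% were called between E13.5 and E10.5, 0.0291% between female and E10.5, 0.0872% between male and E10.5 and 0.145% between female and male cells. Between E13.5 and E10.5 Pax6 had the largest difference among the windows, -1.55 ± 0.93 (SE, limma adjusted p = 0.595), made up of -0.87 ± 1.08 in female (adjusted p = 0.854) and -2.24 ± 1.08 in male cells (adjusted p = 0.370). Without adjustment for multiple tests, the limma p was under 0.05 for 1 window, Pax6 in the male contrast, and for 0 windows in the other contrasts. Of all features, 7.06 to 12.4% did so over the 4 contrasts. Since E10.5 libraries are of unstated sex, contrasts of 1 sex with E10.5 mix sex and stage. Pax7 was at -1.68 ± 0.95 in male against E10.5 cells (SE, limma adjusted p = 0.443). In female minus male cells Pax7 was at 1.76 ± 0.95 (adjusted p = 0.602) and Pax9 at 1.70 ± 1.07 (adjusted p = 0.636). The median difference between E13.5 and E10.5 was -0.29 over the windows and -0.19 over all features.

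**Figure D4:**
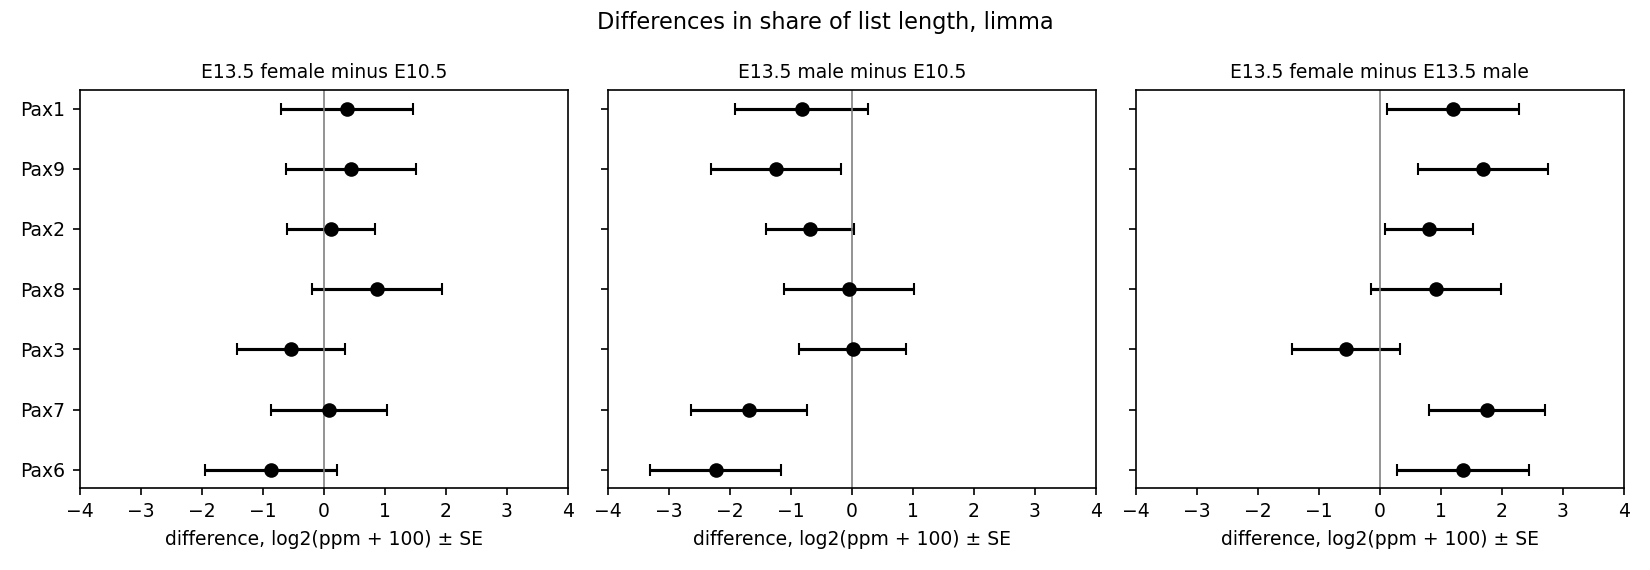
Differences between groups for the 7 Pax windows on the log2(ppm + 100) scale from limma, points with SE bars, for female against E10.5, male against E10.5 and female against male cells. The Pax6 point lies at -2.24 in the male panel, and no window passed an adjusted p of 0.05 in any panel.

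Between the sexes at E13.5, mean coverage in kb was higher in female cells in 7 of 7 windows, beside 64.2% of the 100-kb bins. Female over male ratios ran from 1.48 at Pax8 to 2.39 at Pax9, with 2.27 at Pax6, 1.96 at Pax2, 1.91 at Pax7, 1.74 at Pax3 and 1.71 at Pax1. Exact permutation p-values were 0.2 for Pax2, Pax7 and Pax9, 0.4 for Pax3 and Pax6, 0.5 for Pax1 and 0.6 for Pax8, where 3 against 3 libraries cannot go below 0.1. In 0 windows did every female library lie above every male library, as in 6.05% of the features. Male replicate 2 had 0 kb in 5 of the 7 windows, so the ratios rested partly on that list. Without it they ran from 0.989 at Pax8 to 1.59 at Pax9. The female minus male difference was 0.581 kb without it and 1.99 kb with it at Pax1, 4.01 and 8.13 kb at Pax2, 1.32 and 2.74 kb at Pax3, and 1.85 and 4.11 kb at Pax7. Without it the difference was 2.06 kb at Pax9, 1.21 kb at Pax6 and -0.0178 kb at Pax8 (exact permutation p from 0.5 to 1 over the 7). In ppm Pax3 was lower in female cells by 1267, while the other 6 windows were higher, beside 59.8% of the 100-kb bins (exact permutation p from 0.2 to 0.8 over the 7). In 0 windows was every female above every male library in ppm, as in 6.83% of the features.

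Inside the windows, the places of the peaks were compared in the 60 bins of 10 kb, a library holding a bin with at least 1 kb in peaks. E10.5 libraries held 41, 16 and 45 of them, female libraries 9, 21 and 18 and male libraries 9, 0 and 15. In 45 of the bins at least 1 library held the bin, and 2 of these (4.44%, beside 1.40% of such bins genome-wide) were held by all 3 E10.5 and by no E13.5 library. One was chr1:78210001-78220000 at Pax3, with 6.36, 2.78 and 8.58 kb at E10.5, 0.740 kb in male replicate 1 and 0 kb in the other 5 E13.5 libraries. The other was chr2:105520001-105530000 at Pax6, with 10.0, 1.14 and 9.26 kb at E10.5, 0.363 kb in female replicate 3 and 0 kb in the other 5. Such a bin must be held by E10.5 replicate 2, which held 16 bins in the windows and 651 genome-wide. Among these, 2 of 16 in the windows and 130 of 651 genome-wide were of this kind. The percentages above thus start from unlike backgrounds, and the difference was not tested. No bin in the windows was held by a whole E13.5 group and by no E10.5 library, where genome-wide the shares were 0.0324% for all E13.5, 0.0328% for female and 0.033% for male libraries.

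Against female cells alone the same 2 bins were found, beside 2.09% genome-wide. Against male cells alone there were 5 of 45 bins (11.1%, beside 2.31%), 2 each at Pax3 and Pax6 and 1 at Pax2. Among bins held by E10.5 replicate 2, the female comparison gave 2 of 16, beside 191 of 651 genome-wide. The male comparison gave 5 of 16, beside 210 of 651. The Pax2 bin, chr19:44900001-44910000, had 10.0, 1.19 and 10.0 kb at E10.5, 0.327, 4.89 and 0.690 kb in female and 0, 0 and 0.161 kb in male libraries. At Pax3, chr1:78200001-78210000 had 9.14, 3.84 and 10.0 kb at E10.5, 0.380, 2.36 and 2.91 kb in female and 0, 0.276 and 0 kb in male libraries. Without E10.5 replicate 2 the counts became 13 between the stages, with 16 for the female and 25 for the male comparison. They were 4 against female cells without female replicate 2 and 8 against male cells without male replicate 3.

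Between the sexes 1 of 29 bins (3.45%, beside 1.81%) was held by all female and no male libraries, chr2:105500001-105510000 at Pax6. It had 1.90, 1.01 and 2.60 kb in female and 0.697, 0 and 0.217 kb in male libraries, and all 3 E10.5 libraries held it too, with 10.0, 3.46 and 10.0 kb. Female above male in every library follows from the rule that picked this bin. Among bins held by female replicate 1 it was 1 of 9, beside 50 of 489 genome-wide. Mean list length also fell from E10.5 through female to male lists (19.2, 3.64 and 2.21 Mb). The count of bins held by all female and no male libraries was 2 without male replicate 2, and 1 to 3 with any single library left out.

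Stretches shorter than a bin were also compared, and no genome-wide share was taken for them. Stretches of at least 100 bases in peaks in all 3 E10.5 libraries and in no E13.5 library were longest at Pax3, 2010 bases at chr1:78210630-78212639 and 1530 bases at chr1:78204794-78206323, and at Pax6, 1321 bases at chr2:105505149-105506469. All such length, shorter stretches included, came to 4.19 kb at Pax3, 3.31 kb at Pax6, 1.67 kb at Pax2, 1.51 kb at Pax7, 0.801 kb at Pax9 and 0 kb at Pax1 and Pax8. Stretches in all 3 female and no male libraries were at most 514 bases, at chr4:139381032-139381545 in Pax7.

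E13.5 peaks in the windows lay almost wholly inside places that also had E10.5 peaks. Of the window length in peaks, 98.6, 99.7 and 99.9% in female and 100, 100 and 99.4% in male replicates 1, 2 and 3 was covered by a peak in at least 1 E10.5 list. Over the whole lists this share was 76.2 to 87.5%. The E10.5 peaks together covered 53.8% of the length of the windows and 1.50% of the genome, so the shares in the windows and over the lists start from unlike backgrounds. Peaks of any E13.5 list reached outside the E10.5 peaks by 763 bases at Pax2, 28 bases at Pax3 and 0 bases in the other 5 windows. The union of E10.5 peaks rests mostly on replicates 1 and 3, and the share was not tested.

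Peak width separated most lists as well. Median widths in the windows were 1976, 740.5 and 1776 bp in E10.5 replicates 1, 2 and 3, 630, 681.5 and 749 bp in female and 613.5, 276 and 723 bp in male libraries. E10.5 replicate 2 lay within the E13.5 range, between female replicates 2 and 3. Of the 163 E10.5 peaks in the windows 31 were 5 kb or wider, 12, 1 and 18 by replicate, against 1 of the 237 E13.5 peaks, which was at Pax2 in male replicate 3. Over the whole lists median widths were 923.5, 827 and 728 bp at E10.5, between 431 and 510 bp for female and between 283 and 553 bp for male cells, so there E10.5 replicate 2 lay above every E13.5 list. Peaks of 5 kb or wider made up 19.02% of the E10.5 and 0.422% of the E13.5 peaks in the windows, beside 5.87% and 0.0982% of all peaks in the lists. Widths were described with no test.

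H3K9me3 was not detected in any Pax window. None of the 9 lists, which covered 0.441 to 78.9 Mb, had a peak in a window, nor within 10 kb of one. The nearest H3K9me3 peak in any list was 16.4 kb from the Pax9 and Pax3 windows, 21.6 kb from Pax2, 41.4 kb from Pax7, 76.9 kb from Pax8, 77.8 kb from Pax6 and 199 kb from Pax1. In comparison, 2.79 to 55.1% of all 100-kb bins had an H3K9me3 peak in a given list, 62.2% in any list, and 49.1% of the 3433 bins with H3K27me3 did in any list. The lists hold only called peaks, so H3K9me3 below the authors' calling threshold cannot be seen, and no H3K9me3 comparison between groups could be made.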

How the data were processed

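The labels list 31 samples, of which 18 ChIP libraries with a peak list were used and 13 input libraries were not. Per the submitters' processing notes, which give no roles, the tools were BWA 0.7.5a, MACS2 2.1.0, SAMtools, CASAVA 1.8.4, Picard and deepTools 3.3.0, and the build was mm9. Each deposited list holds broad peaks of 1 library, called against an input per the peak names in the files, and its thresholds are not given in these sources. Each peak's score in the deposited files is the authors' own value on an unknown scale. Scores served only to rank peaks within a list and, in 1 alternative, to filter all lists at a score of at least 20. Whether that cutoff means the same in every list is unknown. The label of 1 H3K9me3 input, E10.5 replicate 2, gives another stage than its title.

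For each library, peaks were merged, 19 mitochondrial peaks were left out, and the bases of each window in peaks were counted (Python 3.11.15, numpy 2.4.6, pandas 2.3.3). The share of list length in ppm was tested with limma 3.58.1 (R 4.3.3, trended variance) on log2(ppm + 100), in 1 fit of all 9 H3K27me3 libraries with the 7 windows and every 100-kb bin outside them that had peaks in at least 3 lists. All 7 windows passed that filter. A window was called at an adjusted p of 0.05 (Benjamini-Hochberg over all features), and exact tests enumerated every split of the libraries. Scripts were tested on simulated data with known changes. All 7 windows of the rule are named. Windows, lists and tests were chosen with earlier results of these data known. The planned H3K9me3 tests gave no value, since no window had an H3K9me3 peak. Libraries of the same replicate number did not all deviate together, so the numbers were not taken as pairs. Alternatives were the peak score, top-ranked peaks, the scale, the window edges, the bin rules, the offset, the block and leaving out libraries.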

Additional observations from a re-analysis of the deposited data

Results flagged for a closer look

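One value stood far from the others of its group. At Pax3, which specifies neural crest and muscle progenitors, E13.5 male replicate 2 had 5508 ppm of its H3K27me3 peak length in the window, against 1322 to 1990 ppm in the other 5 E13.5 libraries. The gap to the nearest library was 0.841 of the range of the 6 E13.5 libraries, above Dixon's 95% critical value of 0.625. That list holds 359 peaks, and the value comes from 2 of them, which cover 0.876 kb, the lowest length at Pax3 among the 9 lists. 14 such checks were made, and chance flags about 1 in 20 groups.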

How the results depend on the processing

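The lower mean H3K27me3 coverage at E13.5 kept its direction in all 7 windows with widened windows, whole peaks, a score of at least 20, the replicate block and any single library left out, and in 6 of 7 with each list's 359 top-ranked peaks. In ppm of list length it turned at Pax1 (189 ppm) and Pax8 (207 ppm) and no longer passed at Pax9 (-175), Pax2 (-720), Pax3 (-374) and Pax7 (-484). With the 359 top-ranked peaks it turned at Pax3 (0.176 kb) and no longer passed at Pax9 (-4.73 kb), Pax2 (-1.97), Pax7 (-6.11) and Pax6 (-6.61). With a score of at least 20 all 7 passed, now including Pax1 (-14.6 kb) and Pax8 (-2.81). All 7 also passed without E10.5 replicate 2 and E13.5 male replicate 2 together, with Pax1 at -18.7 and Pax8 at -3.20 kb. With the 1703 top-ranked peaks and no male replicate 2, all 7 windows stayed lower at E13.5. Taking as many peaks from each list equalises their number but not their length. Over the whole lists, 2.06 to 6.60% of E10.5 peaks were 5 kb or wider, against 0.0294 to 0.244% in the E13.5 lists used there. In that setting Pax9 (-10.3 kb), Pax2 (-29.6), Pax3 (-14.6), Pax7 (-15.2) and Pax6 (-14.5) passed (exact permutation p = 0.0179 each), and Pax1 (-12.4, p = 0.0536) and Pax8 (-1.03, p = 0.5) did not. Both of these settings were chosen after seeing the data. The cause of these changes was not tested.

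With 1 library left out at a time the stage difference ranged from -19.5 to -7.85 kb at Pax1, -14.9 to -7.83 at Pax9, -83.5 to -37.4 at Pax2, -3.47 to -1.25 at Pax8, -43.5 to -19.6 at Pax3, -48.1 to -19.3 at Pax7 and -33.8 to -18.0 at Pax6. Libraries of the same number did not all deviate together: their correlations ran from -0.18 to 0.15 over 9 pairs, against -0.25 to 0.22 over 18 other pairs. The 3 pairs of replicate 3 were at 0.10, 0.14 and 0.15, and those of replicates 1 and 2 at -0.18 to 0.11. With the replicate block the differences were the same and 1 window, Pax6, passed (exact permutation p = 0.037). Pax9 (-10.6 kb), Pax2 (-55.9), Pax3 (-30.4) and Pax7 (-32.3) had p = 0.0741 in that exact test.

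The difference of female from male cells passed no test under any alternative, and the exact test could not pass. With 3 against 3 libraries it cannot go below 0.1, nor can it with the replicate block or with fewer libraries. Its p-values thus do not tell how far the difference depends on the processing. The difference turned at Pax3 to -1.32 kb and at Pax7 to -0.0680 with a score of at least 20, to -0.233 and -0.152 with the 359 top-ranked peaks, and at Pax3 to -1267 in ppm. It turned at Pax1 to -0.737 kb and at Pax3 to -1.79 with the 1703 top-ranked peaks and no male replicate 2. With 1 library left out it ranged from 0.0655 to 3.49 kb at Pax1, 1.65 to 4.25 at Pax9, 4.01 to 13.1 at Pax2, -0.0178 to 1.15 at Pax8, 0.778 to 4.94 at Pax3, 1.85 to 5.99 at Pax7 and 0.657 to 2.82 at Pax6.

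The bins of 10 kb that separate groups numbered 2, 2, 5 and 1 for E13.5, female and male against E10.5 and female against male cells. They numbered 0, 1, 2 and 0 when any overlap held a bin, 1, 1, 2 and 0 when 50% of it had to lie in peaks, and 5, 5, 9 and 0 with a score of at least 20. With 1 library left out they ranged from 2 to 13, 2 to 16, 5 to 25 and 1 to 3. In limma 0 windows were called in any of the 17 settings and 4 contrasts, and 0 to 5 windows had an unadjusted p under 0.05. Over the 16 alternatives the adjusted limma p of Pax6 between the stages ranged from 0.0642, on covered kb, to 0.997. Windows with an H3K9me3 peak numbered 0 with widened windows too, so the H3K9me3 tests gave no value under any setting. With depth unknown, a window at 0 kb in a list of 359 peaks says little about the mark there.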
